A study of Xenopus laevis with 16 samples.

Results

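Here 300 gene models are described. Their measured RNA was plentiful in young Xenopus laevis animal cap explants and scarce a day later, with treatments close to control at every hour. The models were chosen by measured values. L, the level used throughout, is log2(CPM + 1), where CPM is the count scaled to library size, with TMM factors that correct for library composition. A model was taken when L in control fell by at least 2.5 from 2.5 to 24 h and when L with each of the 3 treatments lay within 0.7 of control at all 4 hours. These limits were met by 433 of the 30864 models with at least 50 counts in total, out of 54142 models in the table, and the 300 with the largest fall in control were kept as members. The fall from 2.5 to 24 h and the closeness to control are therefore the choice itself and not findings. What the choice left free is the control course in between, at 5 and 7.5 h, with the treatments held within 0.7 of it. The course at these hours is the subject of most of what follows.

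Animal caps are the pluripotent ectoderm at the roof of the blastula, which forms epidermis when left alone. About the blastula stage the frog embryo passes from RNA stored in the egg to RNA made from its own genome. Stored maternal transcripts are then removed over the following hours, in part after loss of their poly(A) tails, while a set of early zygotic genes is switched on briefly and off again. Both kinds of transcript can be high in a young explant and low in an old one. Poly(A) RNA sequencing of whole explants does not separate them. Nor does it separate slower synthesis, faster decay and loss of the poly(A) tail with the RNA still present. In bulk RNA, fewer cells of a type and less RNA per cell cannot be told apart either.

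The explants were cut at blastula stage and were uninjected (control, labelled AC), injected with mRNA for GATA4-GR (G4), for GATA4-GR with the Wnt antagonist Dkk-1 (G4D), or for Nodal5 (Xnr). GATA4 is a zinc-finger transcription factor of heart and endoderm, and Nodal5 is a secreted inducer of mesoderm and endoderm. GATA4-GR is a fusion of GATA4 to the hormone-binding part of the glucocorticoid receptor, which acts once dexamethasone is added. Hours are counted from the cutting of the explants and the addition of dexamethasone to activate GATA4-GR. Whether control and Nodal5 explants also received dexamethasone is not stated in the sources used here. Each sample pooled many explants, injection reached cells by mRNA rather than through a promoter, and each treatment was sampled once at each of 4 hours (2.5, 5 and 7.5 h, then 24 h). This gave 16 libraries with 1 library per treatment and hour, so a value at one hour has no replicate.

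Total counts ran from 11339819 to 23310242 per library. TMM factors lay between 1.02 and 1.10 up to 7.5 h and between 0.711 (control) and 0.914 at 24 h. The names of all 4 libraries at 5 h mark them as sequenced again, so that the hour and the repeated sequencing cannot be told apart at 5 h. None of the model identifiers (0 of 54142) matched the gene table used here. The members are therefore described as a group, 2 of them are shown by identifier, no sequence is printed, and the tissue label was not checked against marker genes.

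The members were a visible part of the young transcriptome. At 2.5 h they held 2.09% of the counts in control, 2.01% in GATA4-GR, 2.12% in GATA4-GR+Dkk-1 and 2.36% in Nodal5. At 24 h the same 300 models held 0.116%, 0.149%, 0.148% and 0.149% in that order. No single member dominated these sums. The highest reached 745 CPM in control at 2.5 h, which was 3.81% of the members' summed CPM, and the 10 highest together made up 18.7%. The lowest member stood at 6.29 CPM.

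The median level of the members in control was L = 5.45 at 2.5 h and 5.12 at 5 h, then 4.80 at 7.5 h, and it ended at 1.95 at 24 h. With GATA4-GR it was 5.40, 4.96, 4.69 and 1.94 at these hours. With GATA4-GR+Dkk-1 it was 5.57, 5.08, 4.94 and 1.99. With Nodal5 it was 5.80, 5.27, 4.72 and 2.16. The medians thus stepped down modestly over the early hours in every treatment and dropped by more than 2 units afterwards. Over all 30864 models the median stayed between 2.47 and 2.69 in all 16 libraries, and in control the median change of L from 2.5 to 24 h over all models was 0.04.

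**Figure D1:**
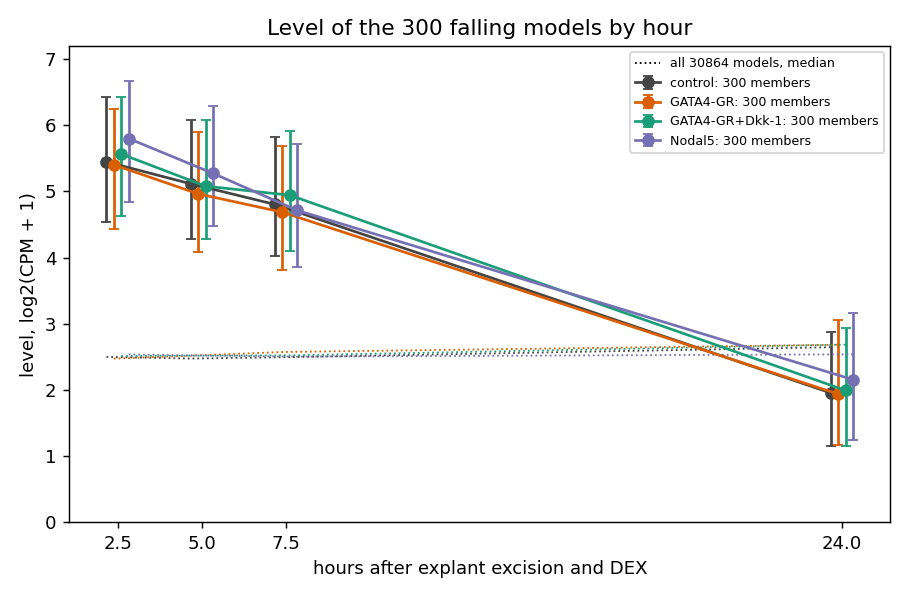
Level of the 300 members, log2(CPM + 1), against hours, with 1 library per treatment and hour. Points are medians over members, bars span the quartiles of the members (not an error of the mean), and dotted lines are the median of all 30864 models. The 4 treatments sit between 4.69 and 4.94 at 7.5 h and between 1.94 and 2.16 at 24 h, while the dotted lines stay between 2.47 and 2.69.

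By their counts, most members were lowered rather than emptied out. In control 298 of the 300 still had at least 1 count at 24 h, and 255 had at least 10. The counts were 298 and 257 with GATA4-GR, 300 and 262 with GATA4-GR+Dkk-1, and 299 and 255 with Nodal5. The median member held 35 counts in control at 24 h against 651 at 2.5 h. For the 2 members at 0 counts in control at 24 h, a count of 0 allows up to 3 counts, or 0.246 CPM at this depth, from counting error only. In CPM, the median member kept 7.67% of its 2.5 h level at 24 h in control, 8.27% in GATA4-GR, 7.12% in GATA4-GR+Dkk-1 and 6.83% in Nodal5. The range over members in control was from 0 to 14.6%.

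The size of the fall was set by the choice and is given as a description. It ran in control from 2.75 to 6.39 in L, with a median of 3.17. The smallest fall among the members was 2.747, the largest left out by the limit of 300 was 2.746, the smallest that met the limits was 2.503 and the largest that missed them on size was 2.498. The largest distance of a treatment from control had a median of 0.54 over the members and reached 0.699, and the nearest falling model outside that limit stood at 0.701. Over the whole table, 1212 models, 3.93% of 30864, fell by at least 2.5 in control.

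The 10 members with the largest falls lost between 4.96 and 6.39 units in control. They began at L between 5.30 and 7.06 and ended with 1 to 33 counts. With GATA4-GR their falls ran from 4.61 to 5.79, with GATA4-GR+Dkk-1 from 4.88 to 6.03 and with Nodal5 from 4.86 to 6.36. No more than 2.60% of the 2.5 h CPM was left at 24 h in any of these 10 in any treatment. Their median share of the fall done by 7.5 h was 21.0% in control, 22.3% in GATA4-GR, 19.6% in GATA4-GR+Dkk-1 and 31.5% in Nodal5.

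Little of the fall was done by 5 h. The share of a member's whole fall in L from 2.5 to 24 h that lay before 5 h had a median of 7.71% in control, with quartiles of 3.86% and 12%. It was 10.5% in GATA4-GR, 10.2% in GATA4-GR+Dkk-1 and 10.5% in Nodal5. For scale, 11.6% of the time between the outer samples had passed by 5 h. The highest share for any member by 5 h was 31.7% in control and 37.7% in any treatment. In control 21 members stood higher at 5 h than at 2.5 h, as did 20 in GATA4-GR, 6 in GATA4-GR+Dkk-1 and 34 in Nodal5. These shares have the 2.5 h and 24 h libraries of the choice in them, so they were not tested.

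By 7.5 h the median share was 15.3% in control, with quartiles of 9.57% and 22.1%. It was 17.8% with GATA4-GR (quartiles 12.3% and 24.3%) and 14.6% with GATA4-GR+Dkk-1 (quartiles 8.84% and 20.6%). With Nodal5 it was 25.4% (quartiles 16.7% and 35.0%). By then 23.3% of the time had passed, so the medians of 3 treatments lay below a straight line in L and that of Nodal5 lay just above it. At least 50% of the fall was done by 7.5 h in 1 member of the control explants, 6 of GATA4-GR, 0 of GATA4-GR+Dkk-1 and 12 of Nodal5, while by 5 h no member had reached 50% in any treatment. For 288 of the 300 members the larger part of the fall in L came after 7.5 h in every treatment.

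**Figure D2:**
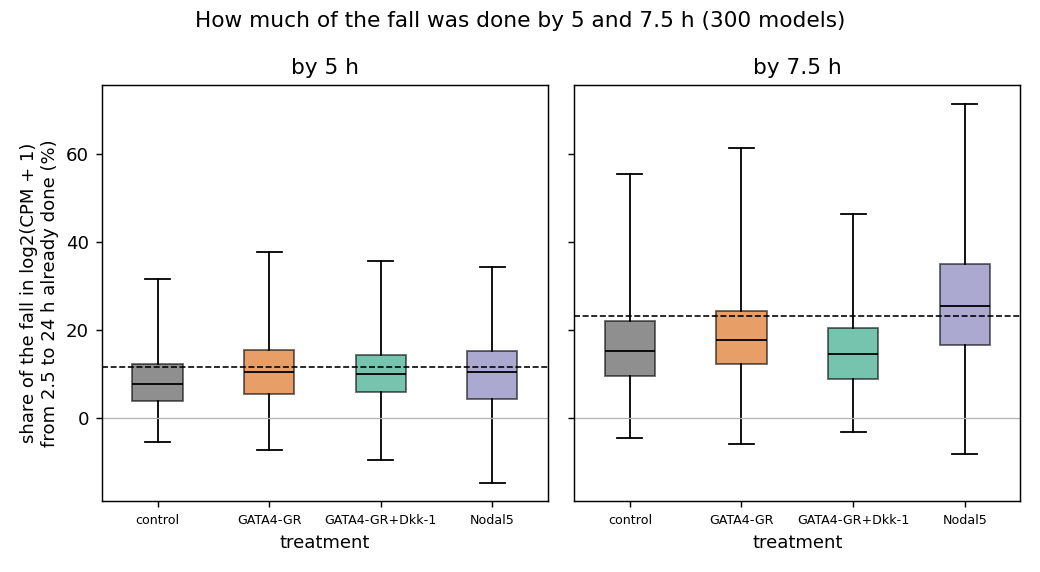
Share of each member's fall in log2(CPM + 1) from 2.5 to 24 h that was done by 5 h (left) and 7.5 h (right), by treatment. Boxes span the quartiles of the 300 members with the median as a line, whiskers reach the lowest and highest member, and the dashed line is the share of the time passed, 11.6% and 23.3%. The medians are 7.71% to 10.5% by 5 h and 14.6% to 25.4% by 7.5 h.

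On the linear scale more had gone early, because equal steps in L are larger in CPM at high levels. Of the CPM lost between 2.5 and 24 h, the median member in control had lost 17.9% by 5 h and 33.4% by 7.5 h. The values by 7.5 h were 37.0% in GATA4-GR, 31.9% in GATA4-GR+Dkk-1 and 49.2% in Nodal5. The median member still held 83.5% of its 2.5 h CPM at 5 h and 69.2% at 7.5 h in control, 66.1% at 7.5 h in GATA4-GR, 70.7% in GATA4-GR+Dkk-1 and 53.9% in Nodal5. On this scale 7 members in control had done at least 50% of their loss by 5 h and a further 40 by 7.5 h. With Nodal5 these counts were 22 and 125.

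Divided by the hours that passed, the fall was steeper late than early in control. The median member lost 0.10 units of L per hour from 2.5 to 5 h, 0.10 from 5 to 7.5 h and 0.17 from 7.5 to 24 h. With GATA4-GR the rates were 0.13, 0.10 and 0.16 per hour, and with GATA4-GR+Dkk-1 they were 0.13, 0.06 and 0.17. Nodal5 differed in order, with 0.14, 0.21 and 0.15. In control the last interval was the steepest for 194 members, with GATA4-GR for 145, with GATA4-GR+Dkk-1 for 190 and with Nodal5 for 76. With Nodal5 the interval from 5 to 7.5 h was the steepest for 166. The first interval starts and the last one ends in a control library that set the fall. Their rates are therefore partly built in, and the order of the rates was not tested. No sample lies between 7.5 and 24 h, so the late rate is a mean over that whole interval and the time at which the members reached their low level was not measured.

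Falls of at least 1 unit from 2.5 to 7.5 h were seen in 33 members in control, 34 in GATA4-GR, 25 in GATA4-GR+Dkk-1 and 125 in Nodal5. Over all 30864 models the same step was made by 1.94% in control, 2.13% in GATA4-GR, 2.13% in GATA4-GR+Dkk-1 and 9.27% in Nodal5. The members share the 2.5 h control library with the choice, so nothing is read from these counts beyond their size. At each step of time and in every treatment alike, 193 members were lower than at the step before.

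The members differed among themselves in pace, and this varied with their starting level. The 100 members highest in control at 2.5 h (64.1 to 745 CPM) had done a median of 12.6% of their fall by 7.5 h in control, the middle 100 had done 16.1% and the lowest 100 (6.29 to 27.4 CPM) had done 17.7%. With Nodal5 the medians were 20.9%, 25.9% and 30.9%, and with GATA4-GR 14.7%, 18.6% and 19.99%. The lowest 100 held a median of 12 counts in control at 24 h against 108.5 for the highest 100, and the addition of 1 CPM shortens the measured fall of low members most. In CPM, with nothing added, the highest, middle and lowest 100 kept medians of 74.7%, 67.1% and 66.7% at 7.5 h in control. At 24 h they kept 8.62%, 8.47% and 6.43%. The part of the added 1 CPM in the gradient was not tested.

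The 75 members that were furthest on by 7.5 h in control ranged from 22.2% to 55.5% of their fall there. The same 75 had medians of 28.0% in GATA4-GR, 23.5% in GATA4-GR+Dkk-1 and 37.7% in Nodal5. The 75 that were least far on ranged from -4.37% to 9.43% in control and had medians of 8.87%, 6.48% and 11.8% with the treatments in the same order. Of the first 75, 47 were also among the 75 furthest on in GATA4-GR, 54 in GATA4-GR+Dkk-1 and 47 in Nodal5. The limit of 0.7 on the distance from control builds in much of this likeness, so nothing is read from it.

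A pair of members was picked by the share of the fall done by 5 h. Among the 248 members with at least 200 counts in every library at 2.5 h, Xelaev16063613m.g had the largest share of its control fall done by 5 h and Xelaev16034469m.g the smallest. The functions of their genes are not known from the sources used here.

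Xelaev16063613m.g stood in control at 21.2 CPM at 2.5 h and 9.47 at 5 h, then at 5.74 at 7.5 h, and it ended at 0.739 at 24 h. With GATA4-GR it stood at 18.5, 7.66, 3.19 and 0.31 CPM. With GATA4-GR+Dkk-1 it stood at 20.9, 8.50, 6.65 and 0.246 CPM. It was lower at each later hour in every one of these treatments. With Nodal5 it began higher, at 32.9 CPM, and then stood at 11.5, 5.45 and 0.262 CPM. By 5 h it had done 29.6% of its fall in L in control and 46.8% by 7.5 h, and by 7.5 h it had done 56.9% in GATA4-GR, 36.7% in GATA4-GR+Dkk-1 and 50.4% in Nodal5. Its 24 h values rest on 9, 4, 4 and 3 counts, and the 95% exact Poisson interval of the control value runs from 0.338 to 1.40 CPM for counting error only.

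Xelaev16034469m.g stood in control at 112 CPM at 2.5 h and 130 at 5 h, then at 93.9 at 7.5 h, and it ended at 5.67 at 24 h. With GATA4-GR it stood at 105, 95.1, 68.3 and 3.72 CPM. With GATA4-GR+Dkk-1 it stood at 112, 109, 93.9 and 3.44 CPM. At 5 h it was higher than at 2.5 h in control and lower with both GATA4 treatments. With Nodal5 it stood at 132, 141, 86.9 and 6.38 CPM, again higher at 5 h. By 7.5 h only 6.12% of its fall in L was done in control, 13.7% in GATA4-GR, 5.49% in GATA4-GR+Dkk-1 and 14.3% in Nodal5, and the rest came between 7.5 and 24 h.

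**Figure D3:**
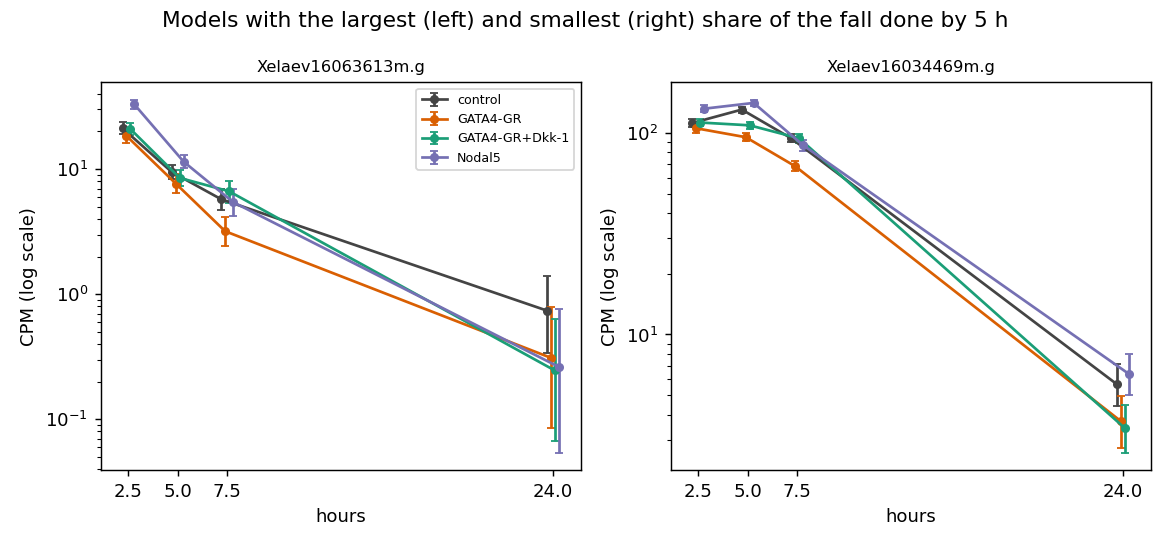
CPM on a log axis against hours for the member with the largest (left) and the smallest (right) share of its control fall done by 5 h, 1 library per point, with 95% exact Poisson intervals for counting error only. Xelaev16063613m.g falls from 21.2 to 9.47 CPM by 5 h in control, and Xelaev16034469m.g goes from 112 to 130 CPM.

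The step from 5 to 7.5 h uses neither of the control libraries that set the fall, and a quasi-likelihood test in edgeR compared it over the 8 libraries of these hours, with the 4 treatments as blocks and an adjusted p under 0.1 as the threshold. All 300 members passed the filter on low counts. At 7.5 h 149 members were lower and 0 were higher. Of all 24067 models tested, 9.09% were called lower and 7.42% higher. The log2 fold change of the members had a median of -0.29 (quartiles -0.42 and -0.18, median standard error 0.09), against 0.03 over all models, and it was below 0 for 293 of the 300 members and for 45.3% of all models tested. At an unadjusted p under 0.05, 209 members were lower, as were 14.6% of all models tested. The members called had fold changes from -0.81 to -0.21.

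Members had been kept for lying close together across treatments at each hour, which lowers their spread in this test and eases a call. They had also been chosen to be higher at 2.5 h than at 24 h, so a fall in between is partly built in. The calls are therefore not independent of the choice. The treatments are also not replicates of one condition, and the 5 h side of the test is the side sequenced again. The calls depended on the libraries in the fit. Without the GATA4-GR libraries 0 members were called and without those of control 23 were. The median fold change of the members was -0.28 and -0.31 in these fits, -0.33 without GATA4-GR+Dkk-1 and -0.22 without Nodal5. Without a treatment block 0 members were called as well, and DESeq2's Wald test called 126. Calls over all models tested fell in the same fits. The share called lower was 0% without GATA4-GR and without a block, 1.31% without control and 6.74% with DESeq2. At 7.5 h 226 members were lower than at 5 h in each of the 4 treatments, as were 16.7% of all 30864 models. For 97 members all 4 libraries at 7.5 h lay below all 4 at 5 h, against 5.31% of all models.

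**Figure D4:**
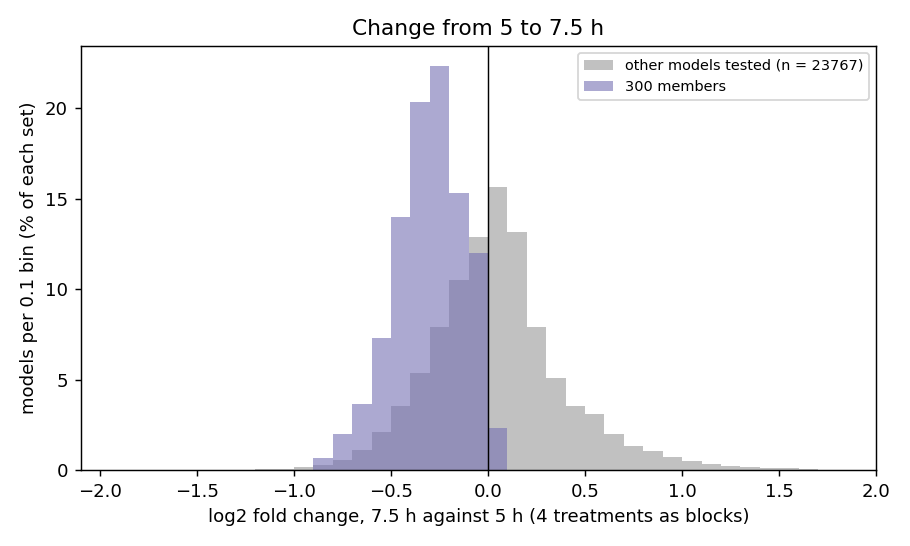
Log2 fold change at 7.5 h against 5 h from the fit with 4 treatments as blocks, as the percentage of each set per 0.1 bin, for the 300 members and the other models tested. The axis ends at 2, and a few other models lie beyond it. The members centre on -0.29 with 293 below 0, and all models tested have a median of 0.03.

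The Nodal5 explants made the largest step from 5 to 7.5 h by the median member. The median change of L from 5 to 7.5 h was -0.53 with Nodal5, against -0.26 in control, -0.24 with GATA4-GR and -0.15 with GATA4-GR+Dkk-1. Every one of these changes is the difference of 2 libraries. Over all models the median change was 0.00, 0.01, 0.02 and 0.00 in the same order. Falls of at least 1 unit from 2.5 to 7.5 h were also more frequent with Nodal5 over all models, at 9.27% against 1.94% in control. The choice had limited the distance of Nodal5 from control at both hours, so the difference between treatments is given as a description, with no test. The Nodal5 library at 7.5 h was among the smallest, with 11381810 counts against 23007105 in the Nodal5 library at 5 h.

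Inside the limit of 0.7, the treatments did not lie evenly around control. With Nodal5 the members were above control at 2.5 h by a median of 0.28 (263 of 300 higher) and at 5 h by 0.21 (257 higher), and below it at 7.5 h, at -0.10 (206 lower). At 24 h the median was 0.17, with 197 higher. With GATA4-GR the members were below control up to 7.5 h, at medians of -0.09, -0.14 and -0.14 with 204, 210 and 237 lower, and at 0.04 at 24 h. With GATA4-GR+Dkk-1 the medians were 0.06, 0.00, 0.08 and 0.01, with 215, 151, 218 and 152 of the 300 higher. Over all models the medians for every treatment and hour were between -0.03 and 0.04. Of all models, 54.1%, 55.8%, 47.2% and 49.9% lay above control with Nodal5 in order of hour. With GATA4-GR these shares were 44.6%, 48.6%, 49.9% and 48.3%, and with GATA4-GR+Dkk-1 they were 52.9%, 49.3%, 49.5% and 47.6%. The pattern of the members up to 7.5 h was not particular to them. Models with the same fall in control that strayed beyond 0.7 had Nodal5 medians of 0.38, 0.22 and -0.10 up to 7.5 h. Their GATA4-GR medians were -0.17, -0.25 and -0.21, and their GATA4-GR+Dkk-1 medians were 0.09, -0.05 and 0.10. At 24 h these models stood at 0.73 with Nodal5 and 0.65 with GATA4-GR, above a control value that the choice had set low. The 3 treatments share the control library of each hour, and each distance compares 1 library with 1, so these distances were not tested.

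**Figure D5:**
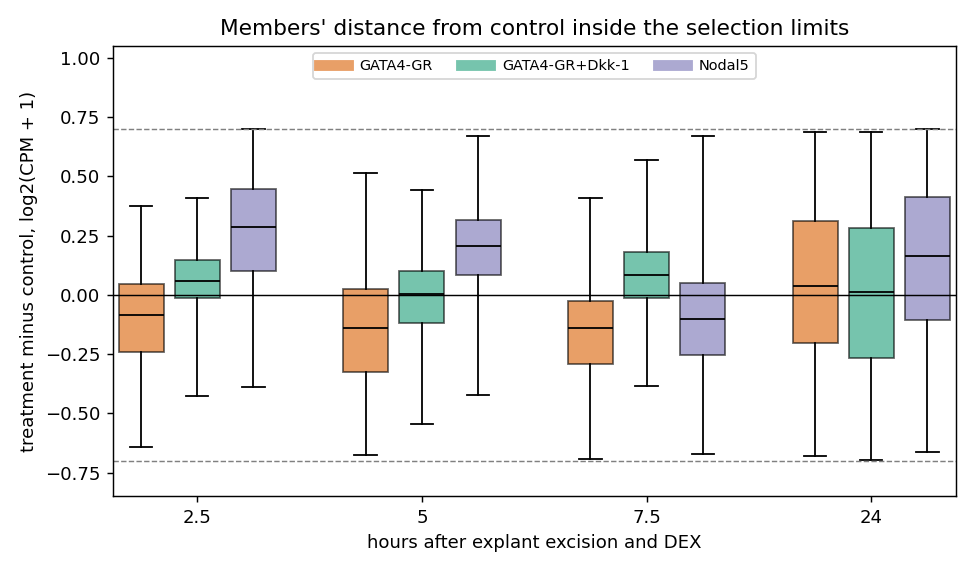
Distance of each treatment from control in log2(CPM + 1) at each hour for the 300 members. Boxes span the quartiles with the median as a line, whiskers reach the extremes, and dashed lines mark the limit of 0.7 used in the choice. The Nodal5 medians are 0.28, 0.21, -0.10 and 0.17 in order of hour.

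Another 779 models fell by at least 2.5 in control but strayed beyond 0.7 from it in some treatment. Of these, 656 did so at 24 h and 437 at 24 h only. At 24 h 370 were higher than control by more than 0.7 in GATA4-GR, 358 in GATA4-GR+Dkk-1 and 403 in Nodal5, against 61, 56 and 51 lower. They had been chosen for a low value in the control library at 24 h, so standing above it is partly built in. Of all models, 48.3%, 47.6% and 49.9% stood above control at 24 h by any amount, in the same order of treatments. In control, where both sets were chosen on the same fall, these models had done a median of 9.04% of it by 5 h and 19.3% by 7.5 h, against 7.71% and 15.3% in the members. With Nodal5 their median share by 7.5 h was 40.6%, against 25.4% in the members. A fall of at least 1 unit from 2.5 to 7.5 h was made by 421 of the 779 with Nodal5 and 161 in control. Among the 300 members these counts were 125 and 33. From 5 to 7.5 h 403 of the 779 were called lower and 11 higher, with a median log2 fold change of -0.34. Of all models tested, 9.09% were called lower and 7.42% higher. The 779 were also chosen on the control fall, so a step down in between is partly built in. The limits of that fit given above hold here too. Both sets were chosen on these values, and the difference between them was not tested.

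Reads that fit several models are divided between them by the counting program, which leaves counts that are not whole. Among the members 54.9% of the values were not whole, against 47.9% over all models kept. Only whole counts were held by 9 members, or 3%, against 17.5% of all models kept. X. laevis carries near-identical gene copies from an ancient genome doubling, and members that share reads with such a copy are uncertain in their own level. For the 9 members with only whole counts the median share of the fall done in control was 12.3% by 5 h and 20.6% by 7.5 h.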

How the data were processed

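RNA-seq was made from 16 animal cap samples, 1 per treatment and hour, grouped by the condition and time in the labels. For the deposited table the authors mapped read pairs with Bowtie (3 seed mismatches at most) against the v7.2 gene models of JGI and had RSEM estimate expected counts, which are not normalized. Versions of these tools are not given in the sources used here. The estimates were rounded. Models with a total of at least 50 were kept, scaled by TMM and expressed as log2(CPM + 1) with edgeR 4.0.16 in R 4.3.3. The test of 7.5 h against 5 h used filterByExpr (minimum count 10), treatment and hour in the model, and Benjamini-Hochberg adjustment over all models tested. DESeq2 1.42.0 was an alternative. The paper's own comparisons set each treatment against control and give no design for time.

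A simulation changed 200 models by a log2 fold of 1, at a mean of at least 50 counts. The coefficient of variation was 0.114. The test of 7.5 h against 5 h recovered 200 with 13.4% false calls, above the share that the threshold of 0.1 allows. Members called lower in the data had log2 fold changes from -0.81 to -0.21, and recovery at these smaller sizes was not tested.

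Among members with at least 200 counts in every 2.5 h library, the models shown by identifier had the largest and the smallest share of the control fall done by 5 h. The members and lists were chosen with earlier results of these data known. The selection without control was added after the values were seen. Planned gene lists needed gene names and were not run. Where a median over members is given, it has no error, since the members are not replicates. Between 11339819 and 23310242 counts per library limit counting error, and the spread between explant batches was not measured.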

Additional observations from a re-analysis of the deposited data

Results flagged for a closer look

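At 24 h the 4 libraries gave 0.116% (control), 0.149%, 0.148% and 0.149% of their counts to the members, and the control library lay apart from the others, with a gap of 0.979 of the range, above Dixon's 95% critical value for 4 values. This was 1 of 8 groups of 4 libraries examined, where chance would flag about 0.4. The members were chosen on values of that control library, so the flag is not independent of the choice. The choice used the TMM-scaled level, whereas these percentages are of counts without TMM scaling. Nothing is therefore read from the flag. That library also had the lowest TMM factor, 0.711. In summed CPM after TMM scaling it stood at 1634, between 1624 with GATA4-GR+Dkk-1 and 1724 with GATA4-GR.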

How the results depend on the processing

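The number of models that met the limits was 433. It became 744 with library totals only, 179 with treatments within 0.5 and 694 with treatments within 1, and lay between 347 and 460 under the other settings. With library totals only, the median of all models shifted by -0.21 from 2.5 to 24 h in control, against 0.04 with TMM, and 228 of the 300 members were shared. The share of the fall done by 5 h in control, 7.71%, became 5.49% with upper-quartile factors, 6.17% with library totals only, 6.09% with treatments within 0.5, 9.31% with GATA4-GR in place of control (a setting chosen after seeing the data) and 12.3% in the 9 members with only whole counts. The share by 7.5 h, 15.3%, became 20.6% in those 9 and was otherwise between 12.2% and 17.8%. Of the timing classes, at least 50% of the fall by 5 h went from 0 members to 7, and at least 50% between 5 and 7.5 h from 1 to 40, when shares were taken of the CPM. In place of control, GATA4-GR gave 6, GATA4-GR+Dkk-1 gave 0 and Nodal5 gave 12 for the latter. The 149 members lower at 7.5 h than at 5 h became 80 at a threshold of 0.05, 0 with no treatment block, and 0 to 127 when 1 treatment was left out. The share of all models called lower, 9.09%, became 3.65%, 0%, and 0% to 6.95% in these settings. Members higher remained at 0 in each setting. The labels give no replicate numbers, and the treatments served as the blocks. Depth limits the members lowest at 24 h, where 255 of 300 had at least 10 counts in control.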
